A study of Mus musculus with 6 samples.

Results

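The immediate-early response genes *Fos*, *Fosb*, *Jun*, *Junb*, *Egr1*, *Ier2*, *Atf3*, *Dusp1*, *Nr4a1* and *Btg2* were examined in the cerebellum of WT and KIKO mice. They are a list of 10 genes taken by name, of 31053 genes in the count table. Each was found once by its Ensembl identifier, and 10 of the 10 were among the 10889 genes with enough counts to be tested. The study compared WT mice with knock-in knock-out (KIKO) mice, a model of Friedreich's ataxia in which a knock-in allele is combined with a null allele. WT mice were littermates on C57BL/6. The study describes CD45+/CD11b+ cells sorted with magnetic beads from the cerebellum at 6 mo of age. As traits of the samples, the labels instead name the cerebellum and the genotype only, with no treatment, age, sex or sorting. Libraries of 2 WT (replicates 1 and 2) and 3 KIKO mice (replicates 1, 2 and 3) were used, and a WT sample numbered 3 was not analysed here. The study states more mice per group than these libraries. The labels do not say that each library is a separate mouse, so p-values measure the spread between these libraries, which may be technical.

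Immediate-early genes are transcribed within minutes of a stimulus from factors that the cell already holds, without new protein synthesis. Growth factors, calcium entry, stress and inflammatory signals reach them through MAP kinases, which activate the serum response factor with its ELK partners and the cAMP-responsive factor CREB. *Fos* and *Fosb* encode partners of the *Jun* and *Junb* proteins in the AP-1 transcription factor, *Egr1* and *Nr4a1* encode further transcription factors, and *Atf3*, *Dusp1* and *Btg2* are commonly read as feedback or stress members. In brain tissue they respond to neuronal activity, and in microglia they are known to be induced when tissue is dissociated for sorting.

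The total was between 1013107 and 1351339 counts per library, at which 3 counts, taken as the floor, correspond to a CPM between 2.22 and 2.96, counting error only. KIKO replicate 2 stood apart. Across the genes tested, its log2 CPM had r between 0.672 and 0.747 with the other libraries, compared with up to 0.931 among those, as a description over genes that share libraries. The results below are therefore given with and without it. Microglial markers were present in each library as a sum, and 11 of 11 were detected in at least 1 library. The same held for 6 of 6 markers of oligodendrocytes, 6 of 6 of granule neurons and 4 of 4 of the choroid plexus, while *Cd3e*, *Cd3d*, *Cd79a* and *Ms4a1* of lymphocytes were at 0. In such bulk libraries, fewer cells of a type cannot be told apart from less RNA per cell.

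The stretches of 250 bases before the transcription start are shown for *Fosb*, the member that differed most between the genotypes, for *Fos*, its closest relative here, and for *Btg2*, which carries a complete CRE, the site bound by CREB. Sequences are those of RefSeq on GRCm38.p6, 5′ to 3′ along the gene's strand, with each TGACG, the CRE half-site, in capitals on either strand (CGTCA where it lies on the other strand).
*Fosb*, chr7:19310046-19310295, minus strand: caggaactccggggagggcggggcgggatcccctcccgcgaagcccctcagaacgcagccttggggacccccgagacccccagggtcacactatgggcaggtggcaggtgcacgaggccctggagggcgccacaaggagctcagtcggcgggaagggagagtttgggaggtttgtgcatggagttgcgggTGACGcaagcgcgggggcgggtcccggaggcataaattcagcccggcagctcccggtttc
*Fos*, chr12:85473640-85473889, plus strand: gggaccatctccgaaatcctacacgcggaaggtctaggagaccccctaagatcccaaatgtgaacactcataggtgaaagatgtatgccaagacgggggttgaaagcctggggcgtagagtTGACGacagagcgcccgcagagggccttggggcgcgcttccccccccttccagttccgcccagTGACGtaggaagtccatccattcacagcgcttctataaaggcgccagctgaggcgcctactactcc
*Btg2*, chr1:134079156-134079405, minus strand: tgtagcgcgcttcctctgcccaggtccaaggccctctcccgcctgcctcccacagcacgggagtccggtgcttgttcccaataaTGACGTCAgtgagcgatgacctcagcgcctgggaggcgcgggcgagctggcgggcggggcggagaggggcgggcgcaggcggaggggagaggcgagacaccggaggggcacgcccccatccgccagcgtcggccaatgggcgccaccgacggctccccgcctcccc
In the annotation of the same build (GENCODE M21), *Fos* lies at chr12:85473890-85477273 on the plus strand and *Fosb* at chr7:19302696-19310051 on the minus strand. *Jun* lies at chr4:95049034-95052222, *Junb* at chr8:84974484-84978718 and *Ier2* on the same chromosome at chr8:84661331-84662852, all 3 on the minus strand. *Atf3* (chr1:191170296-191218039), *Btg2* (chr1:134075170-134079120) and *Dusp1* (chr17:26505590-26562128) are also on the minus strand, and *Nr4a1* (chr15:101254269-101274795) is on the plus strand. Counts are sums over the exons of each gene.

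Of the members, 8 had a promoter in the RefSeq table, and 7 of these 8 held TGACG on at least 1 strand (*Fos*, *Fosb*, *Junb*, *Atf3*, *Dusp1*, *Nr4a1* and *Btg2*), compared with 17.8% of 32851 promoter stretches of the same length. The half-site lies between bases -60 and -56 of *Fosb* and at -129 and -66 of *Fos*, counted from the transcription start. The complete CRE, TGACGTCA, which holds overlapping half-sites on both strands, was found in *Btg2* and *Dusp1* (1.55% of all stretches). The AP-1 site TGANTCA (6.75% of all) and the CArG box of the serum response factor (1.47% of all), both searched on both strands, were in 0 of the 8 stretches, which says only that these letters are not within this window. These matches are a description of sequence and not of binding.

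*Fosb*, an AP-1 subunit of the Fos family, was the only member to pass the cut-offs of the study, which ask that the log2 fold change exceed 0.75 in either direction with p under 0.05 before adjustment. Its normalized CPM, the counts scaled by TMM library size, were 299.8 and 295.0 in WT replicates 1 and 2. In KIKO replicates 1, 2 and 3 they were 161.7, 161.5 and 119.7. Every KIKO library was below both WT libraries, which were close to each other. The WT mean was 297.4 ± 3.386 (SD, n = 2), and that of the KIKO libraries was 147.6 ± 24.16 (SD, n = 3). These values rest on 301 and 389 counts in WT and on 205, 209 and 118 counts in KIKO libraries. By edgeR's quasi-likelihood test the log2 fold change was −1.01 (standard error 0.35, 95% interval −1.80 to −0.21), an unadjusted p of 0.0187 in a model over all genes, and the adjusted p was 1 (Benjamini-Hochberg). So 1 of the 10 members was past the thresholds, 0 higher and 1 lower, beside 1.2% of all genes tested (0.487% lower and 0.716% higher). No member had an adjusted p under 0.05 in edgeR's model, and of all genes 0 had, with 131 at an unadjusted p under 0.05, while DESeq2 had 136 past the thresholds and also 0 by adjusted p. With 2 against 3 libraries, an exact one-sided permutation test cannot give a p below 0.1. Groups without overlap were seen in 1 of the 10 members and in 16.7% of all genes tested (8.51% with KIKO lower and 8.2% with KIKO higher). Without KIKO replicate 2, the log2 fold change of *Fosb* was −1.08 with an unadjusted p of 0.000284 and an adjusted p of 0.209 (edgeR). With any other library left out it was no longer past the thresholds, with log2 fold changes between −1.08 and −0.88 and unadjusted p between 0.0556 and 0.0869 in the models over all genes, those without a WT library assuming that the lone WT library varies like the KIKO libraries. The difference between *Fosb* and the other members was not tested.

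*Fos*, whose protein is the prototype partner of JUN, had 184.3 and 280.6 normalized CPM in the WT libraries and 168.0, 421.1 and 147.1 in KIKO replicates 1, 2 and 3. The highest value was that of KIKO replicate 2 and the lowest values were those of the other 2 KIKO libraries, so that the groups overlapped. Its log2 fold change was 0.08 (standard error 0.53, 95% interval −1.13 to 1.28, edgeR). The share of *Fosb* among the counts of *Fos* and *Fosb* was 61.9% and 51.3% in the WT libraries and 49.0%, 27.7% and 44.9% in the KIKO libraries, below both WT libraries in 3 of 3, a ratio chosen after the values were seen.

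*Jun* and *Junb* encode the Jun-family subunits. *Jun* had 757.0 and 1044 normalized CPM in WT and 656.1, 868.6 and 478.0 in KIKO replicates 1, 2 and 3. It was highest in WT replicate 2, and KIKO replicate 2 was the only KIKO library above the lower WT library. *Junb* had 428.3 and 541.5 in WT and 396.7, 888.6 and 254.7 in KIKO mice, with KIKO replicate 2 above all others. The log2 fold changes were −0.43 (standard error 0.42) for *Jun* and 0.08 (standard error 0.55) for *Junb*, with 95% intervals from −1.39 to 0.53 and from −1.17 to 1.33. The ratio of *Junb* to *Jun* was between 0.5189 and 0.6046 in 4 libraries and 1.023 in KIKO replicate 2, a ratio also chosen after the values were seen. The exons of *Jun* overlap those of *Junos* and the exons of *Junb* those of *Prdx2*, and the strand setting of the counting is not given in the sources used here, so part of these counts may belong to the neighbours.

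*Atf3*, a stress-induced factor of the ATF family that can pair with Jun proteins, had 599.7 and 676.5 normalized CPM in WT and 446.4, 692.4 and 411.0 in KIKO mice. KIKO replicates 1 and 3 were below both WT libraries and KIKO replicate 2 was above them. It varied least among the members, by 1.685-fold between the highest and the lowest library. Its log2 fold change was −0.30 (standard error 0.40, 95% interval −1.22 to 0.61).

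*Egr1*, a zinc-finger factor and one of the most abundant members, had 527.9 and 981.4 normalized CPM in WT and 454.3, 1256 and 418.1 in KIKO mice. *Nr4a1*, an orphan nuclear receptor induced in myeloid cells and neurons, had 142.4 and 232.1 in WT and 116.7, 367.0 and 80.17 in KIKO mice. Both were highest in KIKO replicate 2 and next in WT replicate 2, and KIKO replicates 1 and 3 were below both WT libraries. With all libraries the log2 fold changes were −0.09 (95% interval −1.41 to 1.23) and 0.01 (95% interval −1.45 to 1.46). Without KIKO replicate 2 they were −0.80 and −0.93, with unadjusted p of 0.00741 and 0.0037 in edgeR's model over all genes and adjusted p of 0.423 and 0.381. That fit had a smaller common biological coefficient of variation, 0.238 against 0.468 with all 5 libraries, which lowers its p-values for all genes. The ratio of *Fos* to *Egr1* was between 0.2859 and 0.3698 in the 5 libraries, while *Egr1* itself varied 3.003-fold.

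*Dusp1*, the phosphatase that switches off MAP kinases, had 193.2 and 339.8 normalized CPM in WT and 216.9, 668.4 and 178.6 in KIKO mice. *Btg2*, an antiproliferative gene, had 131.5 and 185.8 in WT and 135.6, 296.7 and 82.2 in KIKO mice. For both genes KIKO replicate 2 was highest, KIKO replicate 3 lowest, and KIKO replicate 1 lay between the WT libraries. *Ier2*, an immediate-early nuclear protein and the member with the fewest counts, had 55.78 and 72.81 in WT and 52.84, 191.6 and 35.52 in KIKO mice, which is 5.396-fold between the highest and the lowest library and the widest range of the members. The log2 fold changes were 0.41 for *Dusp1* (95% interval −1.0 to 1.83), 0.11 for *Btg2* (95% interval −1.13 to 1.36) and 0.54 for *Ier2* (95% interval −1.04 to 2.12). *Ier2* had the groups overlapping through KIKO replicate 2 alone. The exons of *Dusp1* overlap those of *Ergic1*.

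**Figure D1:**
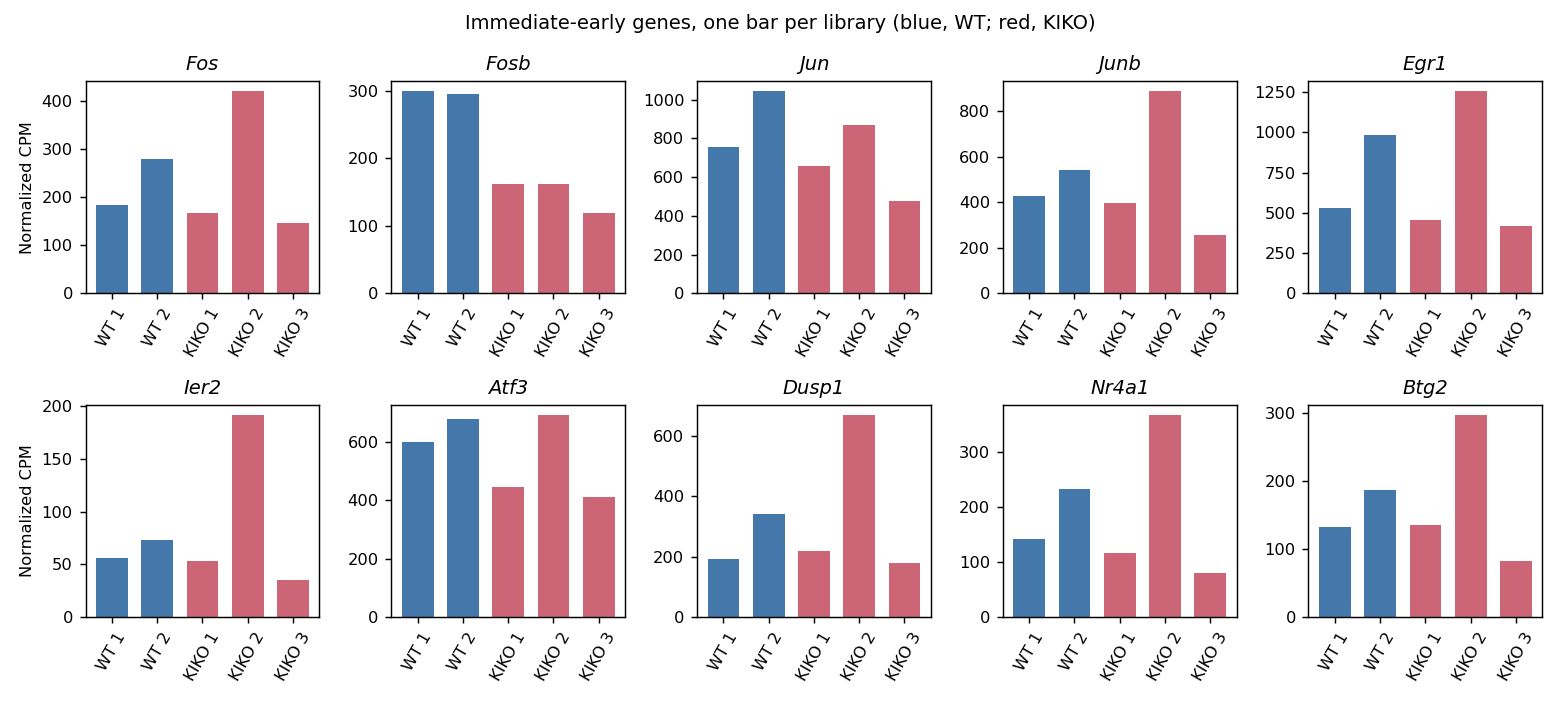
Normalized CPM (y axis, from 0) of each immediate-early gene in each library (x axis), 1 bar per library, blue for WT and red for KIKO. *Fosb* was lower in 3 of 3 KIKO libraries (161.7, 161.5 and 119.7) than in the WT libraries (299.8 and 295.0), whereas KIKO replicate 2 was the highest library for 8 of the 10 genes.

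Most members shared one order of the libraries, in which KIKO libraries stood at both ends. KIKO replicate 2 was the highest library for 8 of the 10 members, beside 33.9% of all genes tested, and KIKO replicate 3 was the lowest for 10 of 10, beside 17.0% of all (8 of 10 and 10.4% for both at once). WT replicate 2 was above WT replicate 1 for 9 of 10 (50.3% of all), and the 8 genes led by KIKO replicate 2 had WT replicate 2 in the next place (14.2% of all). The exceptions were *Jun*, led by WT replicate 2, and *Fosb*, led by WT replicate 1. On the log2 scale, the mean deviation of the members from their own mean level was −0.11 and 0.37 in the WT libraries and −0.32, 0.79 and −0.73 in KIKO replicates 1, 2 and 3, where the median over all genes lay between −0.02 and 0.06. The members together took 0.319% and 0.454% of the counts in WT and 0.278%, 0.606% and 0.214% in KIKO mice. The standard deviation of log2 CPM over the 5 libraries had a median of 0.667 over the members (0.346 to 0.894), and 0.429 over the 2463 genes tested that were at least as abundant as *Ier2*, the least abundant member. These counts of order describe the libraries and test nothing between the genotypes.

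**Figure D2:**
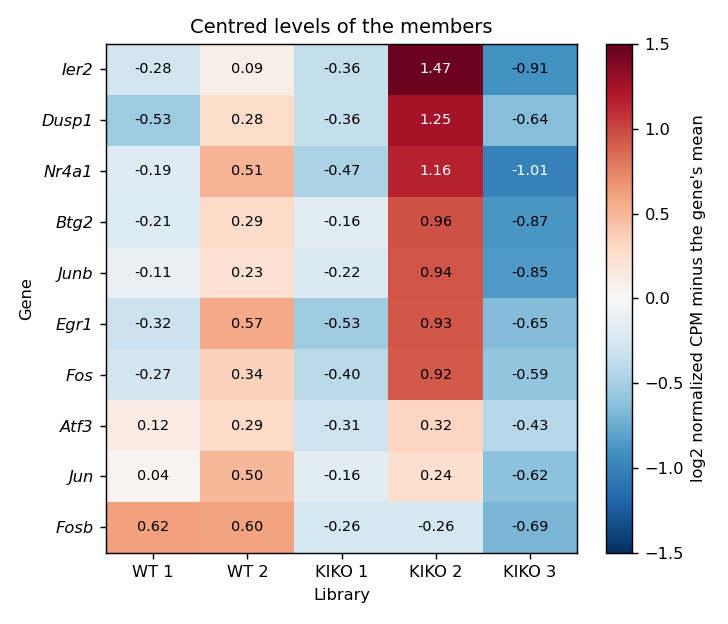
Log2 normalized CPM of each member (rows) minus the gene's mean over the 5 libraries (columns), in log2 units, with red above and blue below the mean. The column of KIKO replicate 3 is below the mean in 10 of 10 rows, and *Fosb* is the row in which KIKO replicate 2 is also below it.

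With all 5 libraries, the median log2 fold change over the members was 0.04, beside 0.02 over all genes tested, with 6 members above 0 and 4 below. Without KIKO replicate 2 it was −0.58, beside −0.01 over all genes: 10 of 10 members were then lower in KIKO mice, from −1.08 to −0.44. Of these, 7 had an unadjusted p under 0.05 (8.21% of all genes in that fit), and *Fosb*, *Nr4a1* and *Egr1*, 3 of the 10, were past both thresholds (6.45% of all genes, 3.51% lower and 2.94% higher). Their adjusted p ranged from 0.209 to 0.723 over the 10 members (edgeR's quasi-likelihood test with Benjamini-Hochberg adjustment), and 0.0482% of all genes were under 0.05. KIKO replicates 1 and 3 were both below both WT libraries for 8 of the 10 members, compared with 19.0% of all genes tested. KIKO replicate 2 was the highest library for 8 of the 10 members, so leaving it out lowers their KIKO level by construction. The members share the same libraries and mostly the same order of them, so these counts are not independent results. The p-values of that fit also rest on its smaller common variation between libraries. Apart from *Fosb*, *Jun* and *Atf3*, the sign of each member's log2 fold change turned when 1 of the libraries was left out.

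**Figure D3:**
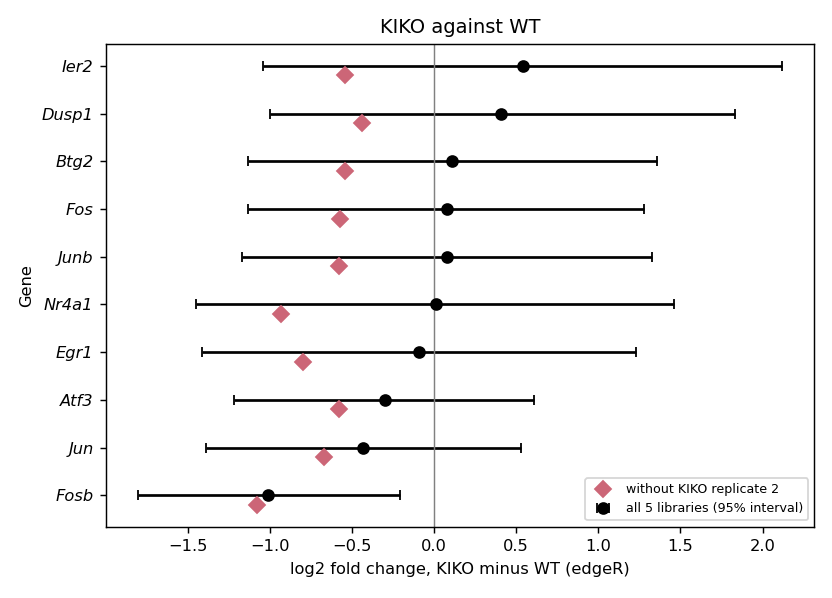
Log2 fold change of KIKO minus WT (x axis) for each member (y axis), as black points with 95% intervals from edgeR's model of all 5 libraries, and as red diamonds without KIKO replicate 2. The interval of *Fosb* (−1.80 to −0.21) lies below 0, the intervals of the other 9 genes span 0, and the 10 diamonds lie between −1.08 and −0.44.

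Markers of several cell types were also highest in KIKO replicate 2. The sums of the choroid plexus markers, mostly *Ttr*, and of the border macrophage markers had the library order of the summed members. The 5 border macrophage markers summed to 187.3 and 225.3 normalized CPM in WT and 186.9, 340.8 and 169.5 in KIKO replicates 1, 2 and 3. WT replicate 1 and KIKO replicate 1 were close, and 2 of these 5 markers were highest in KIKO replicate 2. The 4 choroid plexus markers summed to 10566 and 11633 normalized CPM in WT and 7878, 14088 and 6598 in KIKO replicates 1, 2 and 3, highest and lowest in the same libraries as the summed members (5812 and 2205), with 2 of 4 highest in KIKO replicate 2. *Ttr* alone had 10476 and 11526 in WT and 7836, 13953 and 6550 in these KIKO replicates, so that the order of this sum is that of *Ttr*. The summed level of the 11 microglial markers was 4843 and 6062 normalized CPM in WT and 4246, 10798 and 5015 in KIKO replicates 1, 2 and 3, and 9 of the 11 were highest in KIKO replicate 2. The 6 oligodendrocyte markers summed to 5179 and 11844 in WT and 4540, 18861 and 5803 in KIKO mice, with 4 of 6 highest in KIKO replicate 2. Both sums were lowest in KIKO replicate 1 and, in KIKO replicate 3, above WT replicate 1, unlike the members. The 6 granule neuron markers went the other way, with 3884 and 2622 in WT and 3543, 2217 and 3589 in KIKO mice, and 0 of 6 highest in KIKO replicate 2. The summed level of the members divided by that of the microglial markers was 0.6855 and 0.767 in WT and 0.6607, 0.5382 and 0.4397 in KIKO mice. By this ratio, chosen after the values were seen, every KIKO library was below both WT libraries, KIKO replicate 2 included. KIKO replicate 1 (0.6607) was only little below WT replicate 1 (0.6855). The order holds for the microglial denominator alone, as ratios to the other marker sums were not computed. Of the single genes tested, 8.51% had every KIKO library below both WT libraries. That share is for levels of single genes, and the share for such ratios of sums was not computed. The part of these markers in the levels of the members was not tested.

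**Figure D4:**
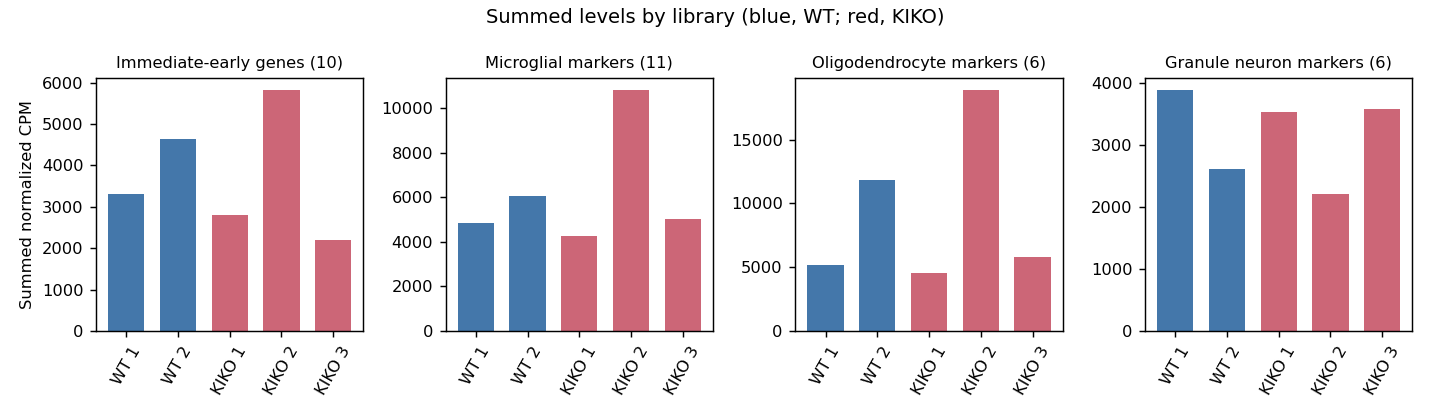
Summed normalized CPM (y axes, from 0) of the 10 immediate-early genes and of the microglial, oligodendrocyte and granule neuron markers in each library (x axes), blue for WT and red for KIKO. KIKO replicate 2 is the highest bar for the immediate-early genes (5812), microglia (10798) and oligodendrocytes (18861) and the lowest for granule neurons (2217).

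The relatives and the upstream pathway were taken from fixed lists of 106 further genes, of which 94 were tested. None was past the thresholds in either direction, beside 1.2% of all genes tested. Of the 94, 42 were fitted above and 52 below 0, and the lowest unadjusted p was 0.102, so that 0 of them had an unadjusted p under 0.05 with edgeR. Groups without overlap were seen in 13 of the 94, beside 16.7% of all genes tested. With DESeq2's Wald test 0 were past the thresholds as well. Without KIKO replicate 2, 10 of these list genes passed, 9 with lower and 1 with higher levels in KIKO mice, beside 6.45% of all genes in that fit (3.51% lower and 2.94% higher). The lowest adjusted p among those that passed was 0.234 (edgeR). *Arc* and *Ccn2*, which are among the 94, were not tested in that fit.

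Among the AP-1 relatives, 9 of 10 were tested and 0 passed. *Jund*, the Jun subunit that most cells express constantly, had 275.9 and 278.4 normalized CPM in WT and 277.6, 656.1 and 299.4 in KIKO mice. *Mafg* of the small Maf proteins had 230.1 and 260.9 in WT and 215.3, 111.3 and 170.5 in KIKO mice, without overlap, and its log2 fold change was −0.57 (95% interval −1.47 to 0.33). *Jund* followed KIKO replicate 2 but was otherwise level, and *Mafg* was lowest there. *Atf4*, the effector of the integrated stress response, was between 324.6 and 419.4 in the 5 libraries. Among the EGR relatives and their NAB corepressors, 4 of 5 were tested. *Egr3* and the corepressor *Nab2* were highest in KIKO replicate 2 (41.73 and 88.09), and the corepressor *Nab1* was lowest there (27.05). The NR4A relatives went apart: *Nr4a2* had its lowest level in KIKO replicate 2 (20.09, against 134.5 and 96.32 in WT), and *Nr4a3* its highest (59.5, against 35.86 and 42.47).

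Of the dual-specificity phosphatases, which dephosphorylate MAP kinases as *Dusp1* does, 6 of 9 were tested and 4 were highest in KIKO replicate 2. *Dusp6*, the phosphatase of ERK, had 62.76 and 113.8 normalized CPM in WT and 62.3, 159.2 and 31.46 in KIKO mice, the library order of *Fos*, although WT replicate 1 and KIKO replicate 1 were within 1 CPM. *Dusp8* was lowest in KIKO replicate 2 (49.45) and *Dusp16* highest (131.4). Among the BTG and TOB relatives of *Btg2*, *Btg1* was lowest in KIKO replicate 2 (25.5), and *Tob1* and *Tob2* were highest there (30.14 and 250.4). *Ier3* did not overlap between the groups, with 153.4 and 162.3 in WT and 194.8, 163.8 and 297.3 in KIKO mice, and its log2 fold change was 0.47 (95% interval −0.44 to 1.37). *Ier5* was between 461.7 and 614.3 in the 5 libraries.

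The upstream kinases and activators, among them SRF, the ELK factors and the CREB coactivators, went different ways from library to library, so that their median stayed near 0. Of 26 tested, 7 (26.9%) were highest in KIKO replicate 2, close to the 33.9% of all genes, and their median deviation was 0.09 in KIKO replicate 2 and −0.05 in KIKO replicate 3. Single genes varied widely: *Srf*, the serum response factor, had 41.84 and 112.3 normalized CPM in WT and 77.29, 204.0 and 59.87 in KIKO mice, whereas the CREB coactivator *Crtc3* had 206.2 and 103.9 in WT and 134.9, 10.05 and 167.4 in KIKO mice, both chosen after their values were seen. *Srf* was highest and *Crtc3* lowest in KIKO replicate 2. *Braf* and the ribosomal S6 kinase *Rps6ka1* overlapped between the groups, at 102 to 204 and 126.8 to 197.2.

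Of the other immediate-early genes, 32 of 35 were tested, and 20 of these (62.5%) were highest in KIKO replicate 2. *Rhob*, a small GTPase, had 341.7 and 326.9 normalized CPM in WT and 287.9, 2213 and 212.1 in KIKO mice, so that KIKO replicate 2 alone was high. *Klf6*, a zinc-finger factor, had 588.7 and 632.6 in WT and 418.0, 569.5 and 373.4 in KIKO mice, without overlap (log2 fold change −0.43, 95% interval −1.29 to 0.43). *Nfkbia*, the inhibitor of NF-κB, was highest in KIKO replicate 2 and WT replicate 2 (1320 and 1295), with 924.4, 824.9 and 815.9 in the others. The genes known to be induced in microglia by tissue dissociation had medians near those of the members in KIKO replicates 2 and 3. Of these, 15 of 17 (88.2%) were highest in KIKO replicate 2, and their median deviation was 0.97 there and −0.61 in KIKO replicate 3, beside 0.94 and −0.67 for the members. The inducible chaperones *Hspa1a* and *Hspa1b* had 4078 and 4014 normalized CPM in KIKO replicate 2 and 1381 and 782.4 in KIKO replicate 3, with 2075 and 1515 in WT replicate 1 and 3261 and 2293 in WT replicate 2. *Hsp90aa1*, an abundant chaperone, was lowest in KIKO replicate 2 (1417). Several genes of this list are also in the list of other immediate-early genes, and the part of dissociation in these levels was not tested.

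**Figure D5:**
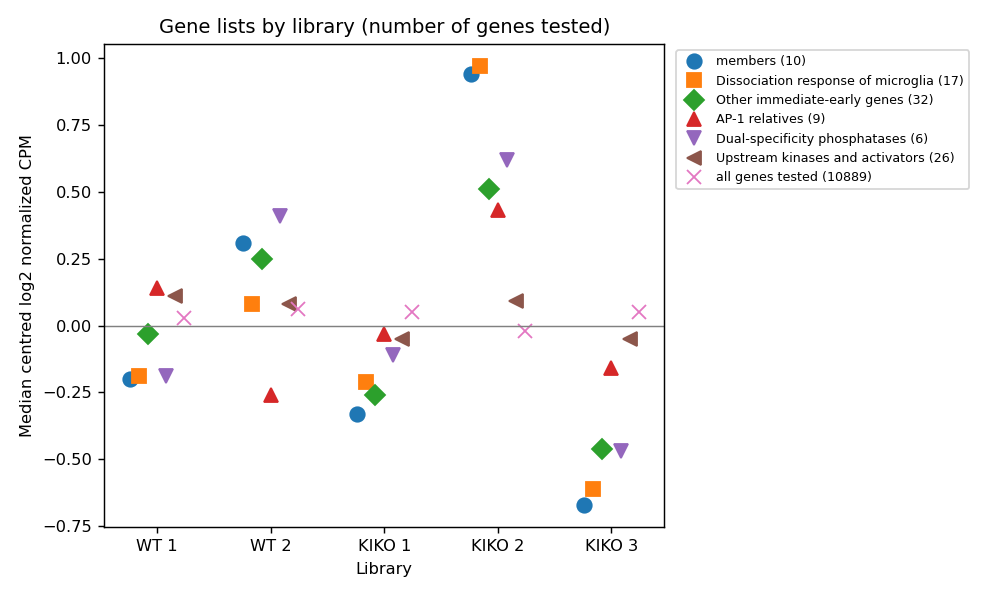
Median over the tested genes of the members, 5 of the lists and all genes of the log2 normalized CPM minus the gene's own mean (y axis, log2 units) in each library (x axis), 1 symbol per gene group. The members and the dissociation list are highest in KIKO replicate 2 (0.94 and 0.97) and lowest in KIKO replicate 3 (−0.67 and −0.61), while the median of the upstream genes stays between −0.05 and 0.11.

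By level per kilobase of merged exons, a scale that allows comparing genes, the order of the mean over the 5 libraries was *Atf3* (262.4 normalized CPM per kilobase), *Jun* (238.5), *Junb* (218.2), *Egr1* (162.2), *Fos* (102.1), *Dusp1* (96.46), *Btg2* (60.65), *Ier2* (53.69), *Nr4a1* (53.49) and *Fosb* (33.25). The last place of *Fosb* came from the KIKO libraries (mean 23.65), since over the WT libraries *Fosb* (47.64) was above *Ier2* (42.25). Neighbours in this order held it in 5 of 5 libraries for *Junb* over *Egr1*, *Egr1* over *Fos* and *Dusp1* over *Btg2*. The other neighbours changed places in at least 1 library. The mean log2 ratio was within 1 SD over the libraries for *Atf3* over *Jun* (0.15, SD 0.17), *Jun* over *Junb* (0.20, SD 0.40), *Fos* over *Dusp1* (0.16, SD 0.22), *Ier2* over *Nr4a1* (−0.05, SD 0.28) and *Nr4a1* over *Fosb* (0.57, SD 0.85), so these neighbours did not differ beyond their spread, and *Btg2* over *Ier2* was close to it (0.31, SD 0.30). The merged exons of *Fosb* include a retained intron, which lowers its value per kilobase. Exons of the other members were merged in the same way, so that values such as those of *Junb* and *Dusp1* may be lowered too. If the libraries hold reads from the 3′ end only, as the name of the library service given by the study allows, a level per length does not apply.

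Genes of like pattern were ranked by the root mean square difference of centred log2 CPM over the 5 libraries. Nearest to the mean of the members were *Itm2c* (0.03), *Pmpcb* (0.04), *Uqcrfs1*, *Sod2* and *Hspa1a* (0.06 each), where the median of all other genes was 0.70. Among the members themselves the difference from this mean was smallest for *Fos* (0.11), *Junb* (0.12) and *Btg2* (0.13) and largest for *Fosb* (0.59). Nearest to *Fos* alone were *Lgr4* (0.04), *Rpl23* (0.05), *Pear1* (0.05), *Aurkaip1* and *Marcks* (0.06 each), and the nearest member was *Egr1* (0.13). The nearest genes were sought among all other genes tested and the nearest member among the few members. Closer genes outside the list are therefore to be expected over 5 libraries, and the values cannot be compared. Nearest to *Fosb*, a ranking added after its values were seen, were *Adam8* (0.06), *Msx1* (0.08) and *Chmp2b* (0.10), whereas the nearest member was *Jun* (0.35). *Pmpcb*, *Lgr4*, *Pear1* and *Adam8* had at most 24.73, 21.64, 13.91 and 11.95 normalized CPM, so that their patterns rest on few counts.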

How the data were processed

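The members and lists were chosen with earlier results of these data known. RNA-seq of 2 WT and 3 KIKO libraries was used, and the design had provided for 3 WT. The authors used Trimmomatic for trimming, HISAT2 for alignment (mm10) and featureCounts for the deposited raw read counts of each gene. A further deposited table holds log2 values. They equal log2(count / size factor + 1) with size factors, recovered from the values, between 0.8772 and 1.19, which returned the count within 0.01 for 100% of values. The study names DESeq2 for the normalization, and the recovered factors were not compared with factors from DESeq2. The strand setting of the counting, its annotation and its handling of multimapped reads are not given in the sources used here. For extraction and libraries, the study gives a Zymo kit and a Digital mRNA-seq service (NEGEDIA), whereas the labels give a lipid tissue kit and a stranded Illumina kit. Another 2 per-sample columns match no label and were not used.

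Names came from GENCODE M21 (GRCm38) for 99.6% of identifiers, and unnamed identifiers took at most 0.182% of counts. Counts were analysed with edgeR 4.0.16 in R 4.3.3: filterByExpr (minimum count 10, total 15), TMM, and the quasi-likelihood test, two-sided, Benjamini-Hochberg over 10889 genes. Log2 CPM used a prior count of 2. Alternatives used DESeq2 1.42.0 and limma 3.58.1. The fit was first tested on simulated data. All members were named, and of each list the genes past the thresholds and otherwise the 3 most abundant, plus the 5 genes of closest pattern. Some items that this rule or the design would name are not reported here.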

Additional observations from a re-analysis of the deposited data

How the results depend on the processing

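The count of members past the thresholds was 1 as reported, 0 with the replicate block (2.49% of all genes), 2 with sample quality weights (limma voom, *Fosb* and *Nr4a1*, 4.77% of all genes) and between 0 and 3 with each library left out, highest without KIKO replicate 2. The count of relatives and pathway genes was 0 as reported, 2 with all genes of at least 1 count (*Gem* and *Rhob*, higher, beside 2.28% of all genes, 1.52% higher), 2 with the replicate block (*Btg1* and *Crtc3*, lower), 5 with sample quality weights (*Klf10*, *Mrtfa*, *Ppp1r15a*, *Rgs1* and *Txnip*, lower) and between 0 and 10 with each library left out. The names in this paragraph were chosen after their values were seen. The median log2 fold change of the members was 0.04 as reported and between −0.58 and 0.37 with each library left out, lowest without KIKO replicate 2. Each of these differed from the reported median by less than 0.72, the spread of the median between replicates, although its sign was not stable. *Fosb* was lower in all 14 alternatives, from −1.08 to −0.88, and past the thresholds in 9 of them. With the replicate block, which leaves 1 residual degree of freedom, it was −0.88 with an unadjusted p of 0.0627 over all genes. The numbers 1 and 2 are shared by both genotypes in the labels, and nothing else pairs the libraries. Deviations of same-numbered libraries correlated with r = 0.18 and 0.239, while WT replicate 1 and KIKO replicate 3 had 0.218, as a description over genes. The sign of the log2 fold change turned in more than 1 alternative for 7 members, and the cause was not tested. For *Ier2* (0.54 as reported) and *Dusp1* (0.41) it turned only without KIKO replicate 2 and with sample quality weights. The log2 fold change was −0.01 for *Nr4a1* with all genes of at least 1 count and 0.07 for *Egr1* with the replicate block. With limma on the deposited log2 values it was −0.05 for *Fos*, −0.09 for *Junb*, −0.26 for *Nr4a1* and −0.06 for *Btg2*. With sample quality weights (0.163 for KIKO replicate 2, at least 1.189 for the others) it was −0.47 for *Fos*, −0.51 for *Junb*, −0.43 for *Ier2*, −0.30 for *Dusp1*, −0.81 for *Nr4a1* and −0.47 for *Btg2*. With each library left out the range was −0.57 to 0.39 for *Fos*, −0.58 to 0.40 for *Junb*, −0.80 to 0.40 for *Egr1*, −0.54 to 0.92 for *Ier2*, −0.44 to 0.85 for *Dusp1*, −0.93 to 0.37 for *Nr4a1* and −0.54 to 0.44 for *Btg2*. *Jun* and *Atf3* stayed below 0, between −0.67 and −0.20 and between −0.58 and −0.17. With RLE factors, library size alone, DESeq2, the stricter filter, the likelihood ratio test and limma on the deposited log2 values, the counts of members and of relatives and pathway genes were the same as reported.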
